A study of Mus musculus with 17 samples.

Results

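The IFIT family comprises the interferon-induced genes with tetratricopeptide repeats, and 6 of the 31091 genes in the count table belong to it: Ifit1, Ifit2, Ifit3, Ifit3b, Ifit1bl1 and Ifit1bl2. The family was chosen by the fall of Ifit1 and Ifit3 in cDC2s between live-cell and dying-cell medium, so the differences between media in cDC2s are given below as a description. For these, counts of calls stand only beside the share of all genes called, and no p-value of a member is given. The comparison of the cell types with WT medium and the differences in response between the cell types draw on the same cDC2 samples and are given in the same way. Values in cDC1s are not known to have entered that choice. The cell types were cultured together before sorting, so the p-values in cDC1s may not be independent of it. All 6 genes passed the filter on low counts in each fit, although several of them stood at a few reads in cDC1s.

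RNA was sequenced from type 1 (cDC1) and type 2 (cDC2) conventional dendritic cells of the spleen, in 17 samples that had spent 6 h with the medium of TC-1 cells, a C57BL/6 lung epithelial tumor line. The media came from live TC-1 WT cells, from TC-1-iBimS cells undergoing apoptosis through the BH3-only protein BimS, or from TC-1-iRIPK3 cells undergoing necroptosis through a self-oligomerizing RIPK3. All 3 lines, WT included, had received the inducer cumate, and the media were used without centrifugation. TC-1-iBimS and TC-1-iRIPK3 are each a single-cell clone, so that clone and mode of death cannot be told apart. The dendritic cells came from pooled spleens of female C57BL/6JRj mice aged 8 weeks that carried a B16 melanoma secreting FLT3L, and GM-CSF was present in culture. They were enriched on CD11c, cultured together and then sorted as XCR1+ cDC1s and SIRPα+ cDC2s. Each group held 3 samples, except for cDC2s with RIPK3 medium, which held 2. No sample was without TC-1 medium, so every fall below is relative to live-cell medium. A fall with dying-cell medium and a rise with live-cell medium cannot be told apart.

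Between 16095159 and 21645289 reads per sample were counted on genes, of which the 6 IFIT genes took from 141 to 2538. The unit of levels is CPM, in which counts are scaled by library size and TMM factor, and 3 reads correspond to between 0.135 and 0.194 CPM. Identity markers fitted the labels: the 5 cDC2 markers summed to between 316 and 362 CPM in cDC2s with WT medium and to between 2.34 and 3.64 CPM in the matching cDC1s, while the 6 cDC1 markers summed to between 65.0 and 84.4 and between 1222 and 1340 CPM. Neutrophil and T and NK cell markers did not exceed 1.46 CPM in sum in any sample. Whether a lower level reflects fewer cells with the transcript or less RNA per cell cannot be told apart in bulk samples.

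IFIT proteins are RNA-binding proteins without enzymatic activity, which cells make in quantity when they sense interferon or viral RNA. IFIT1 binds RNA whose cap lacks ribose methylation and keeps it from being translated, and IFIT2 and IFIT3 act as its partners. Transcription is driven mainly through the interferon-stimulated response element (ISRE), and the genes are therefore widely read as a gauge of interferon signaling. Ifit3b is a near copy of Ifit3, and Ifit1bl1 and Ifit1bl2 are relatives of Ifit1.

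The family occupies 111.9 kb of chromosome 19 (GRCm39, annotation GENCODE M39), from Ifit2 at 34527932 to the end of Ifit1bl2 at 34639833. Ifit2, Ifit3 (34560899 to 34566443), Ifit3b (34585328 to 34590801) and Ifit1 (34618271 to 34632174) lie on the plus strand. Ifit1bl1 (34570291 to 34579356) and Ifit1bl2 (34594449 to 34639833) lie on the minus strand. The body of Ifit1bl2 spans that of Ifit1 over 13904 bases on the opposite strand, with no shared exon base. The coding sequences of Ifit3 and Ifit3b were 99.1% identical, and 46.1% of the 54-base words of Ifit3b exons occurred in Ifit3. How the counting tool dealt with reads that fit several places or with strand is not given in the sources used here, so the division of reads between Ifit3 and Ifit3b is uncertain. Ifit1bl1 and Ifit1bl2 were 88.2% identical, and Ifit2 shared no 54-base word with any other member.

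The starts of 5 of the 6 genes, taken at the transcript that the annotation marks as canonical, carried the letters of the ISRE. Another annotated start of Ifit1bl2, at 34639833, had no match, nor had any annotated start of Ifit2. The sequences below, from the GRCm39 genome, hold the 200 bases before the transcript starts of Ifit3, Ifit3b and Ifit1bl1, and the 127 bases between the divergent starts of Ifit1bl2 and Ifit1. They are shown because they hold the ISRE letters of these 5 members. Each is written along the strand of its gene (Ifit1 for the shared interval), and capitals mark the matches, which read as the reverse complement of the motif.
Ifit3, chr19:34560699-34560898, plus strand: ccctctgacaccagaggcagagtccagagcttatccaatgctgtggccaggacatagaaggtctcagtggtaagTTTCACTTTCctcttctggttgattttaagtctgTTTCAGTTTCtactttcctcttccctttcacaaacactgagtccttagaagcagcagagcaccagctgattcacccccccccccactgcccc
Ifit3b, chr19:34585128-34585327, plus strand: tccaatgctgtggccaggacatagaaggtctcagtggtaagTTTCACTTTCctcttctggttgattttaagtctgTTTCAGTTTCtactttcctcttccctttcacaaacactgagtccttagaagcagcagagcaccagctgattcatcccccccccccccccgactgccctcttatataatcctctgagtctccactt
Ifit1bl1, chr19:34579357-34579556, minus strand: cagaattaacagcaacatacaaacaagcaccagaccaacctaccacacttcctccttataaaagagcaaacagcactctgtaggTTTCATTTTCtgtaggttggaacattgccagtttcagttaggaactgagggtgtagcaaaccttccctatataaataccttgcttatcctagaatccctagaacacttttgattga
Ifit1bl2 to Ifit1, chr19:34618144-34618270, plus strand: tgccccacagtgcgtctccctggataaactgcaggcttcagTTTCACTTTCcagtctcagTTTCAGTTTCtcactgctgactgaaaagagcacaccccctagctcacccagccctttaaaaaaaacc

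The motif, GAAA followed by any 2 bases and GAAA again, was searched on both strands from 250 bases before to 50 after the start. It occurred in 3.68% of 17427 promoters of protein-coding genes, and at least 2 matches occurred in 0.31%. Ifit3 and Ifit3b each held 2 matches 24 bases apart, within an identical run of 148 bases. The interval between Ifit1bl2 and Ifit1 held 2 matches 9 bases apart, which serve the windows of both genes. Ifit1bl1 held 1. No match was found for Ifit2, whose window held instead 1 match to the interferon-gamma activated site (TTC, any 3 bases, GAA), which occurred in 7.77% of promoters. The 2 motifs overlapped at none of these genes. These matches describe letters in a fixed window, and no binding was measured.

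**Figure D1:**
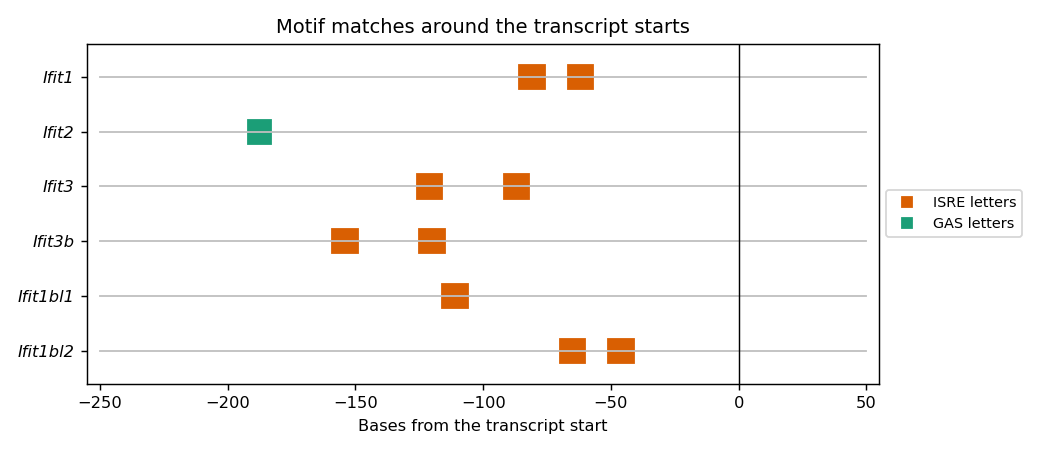
Positions of matches to the ISRE motif (orange) and to the interferon-gamma activated site (GAS, green) in the window from 250 bases before to 50 bases after the canonical transcript start of each IFIT gene, with the x axis in bases. Ifit2 is the only row without an ISRE match.

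With WT medium the family was far more abundant in cDC2s than in cDC1s, by factors that ranged from 1.70 for Ifit2 to 15.5 for Ifit3 among the 3 main genes. The 6 genes summed to 133 ± 2.69 CPM (SD, n = 3) in cDC2s and to 31.1 ± 0.384 CPM (SD, n = 3) in cDC1s. By edgeR's quasi-likelihood test with Benjamini-Hochberg adjustment over all genes, 6 of 6 were called lower in cDC1s, beside 23.7% of 19082 genes. Because the cDC2 samples with WT medium are the baseline of the falls that chose the family, nothing is read from this count, and the values below are a description.

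Ifit1, the sensor of incompletely capped RNA, measured 2.74, 2.90 and 2.92 CPM in cDC1s and 41.7, 41.9 and 42.4 CPM in cDC2s. The groups lay far apart, with hardly any spread within each. The level in cDC1s was 14.7-fold lower, with a log2 fold change of -3.88 ± 0.175 (SE).

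Ifit3 measured 2.29, 1.17 and 1.89 CPM in cDC1s and 25.2, 28.2 and 29.9 CPM in cDC2s, and was 15.5-fold lower in cDC1s (log2 -3.95 ± 0.197). Ifit3b had 6, 2 and 2 reads in cDC1s against 106, 110 and 135 in cDC2s (log2 -5.24 ± 0.295). Ifit1bl1 had 12, 16 and 10 reads against 236, 201 and 269 (log2 -4.36 ± 0.229). For these genes, too, no cDC1 sample came near a cDC2 sample.

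Ifit2, which binds AU-rich RNA and pairs with IFIT3, differed much less. It measured 25.3, 26.2 and 25.2 CPM in cDC1s and 45.2, 47.1 and 38.4 CPM in cDC2s, ranges that did not overlap. It was 1.70-fold lower in cDC1s, with a log2 fold change of -0.77 (95% interval -1.12 to -0.42). Ifit1bl2 was scarce in both, with 4, 0 and 3 reads in cDC1s and 11, 10 and 11 in cDC2s (log2 -2.29 ± 0.683).

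The members took different shares of the family in the cell types. Ifit2 made up 82.2% of the family's reads in cDC1s with WT medium (80.5% to 84.0%) and 32.8% in cDC2s (28.9% to 34.7%). Ifit1 made up 9.18% and 31.6%, Ifit3 5.73% and 20.9%, and Ifit1bl1 1.99% and 9.57%. The ratio of Ifit1 to Ifit2 CPM lay between 0.108 and 0.116 in cDC1s and between 0.890 and 1.10 in cDC2s. It stayed at or under 0.263 in each of the 9 cDC1 samples and at or over 0.678 in each of the 8 cDC2 samples, whatever the medium.

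**Figure D2:**
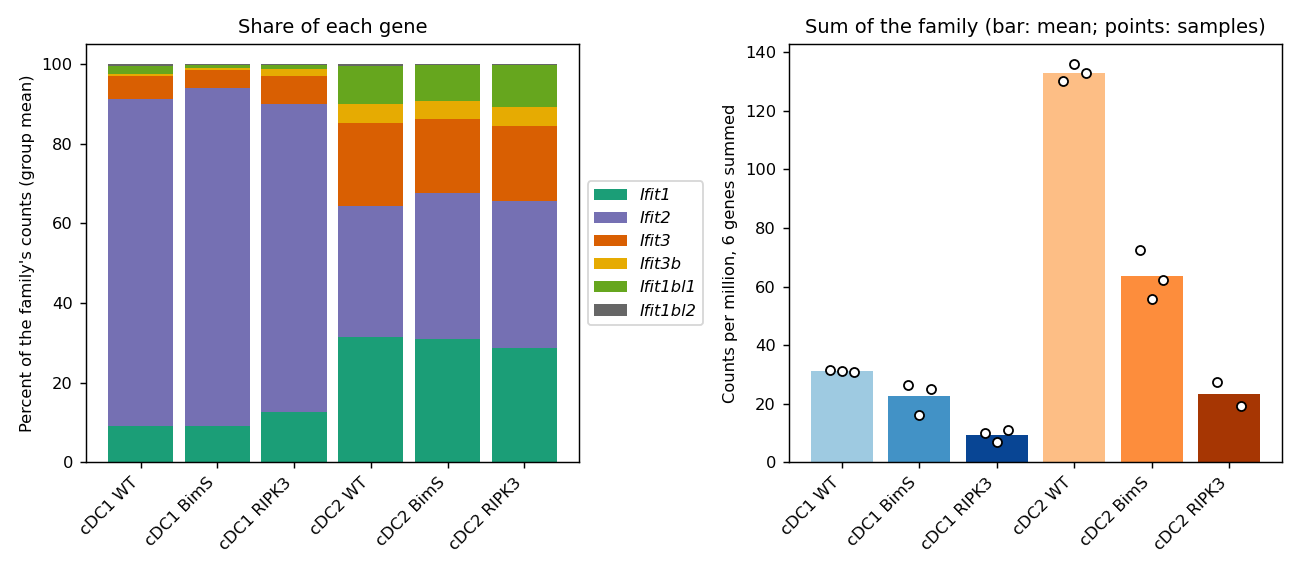
Left, share of each IFIT gene in the family's counts (percent, mean of a group's samples); right, CPM of the 6 genes summed, with bars for means and points for samples. Ifit2 takes 82.2% of the counts in cDC1s and 32.8% in cDC2s with WT medium, and the sum is highest in cDC2s with WT medium.

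Per kb of annotated exon, the scale on which different genes can be compared, Ifit2 led in cDC1s with WT medium at 4.33 ± 0.0930 CPM per kb (SD, n = 3), followed by Ifit3 at 0.619 ± 0.197 and Ifit1 at 0.384 ± 0.0133. In cDC2s the order was Ifit3 (9.65 ± 0.824), Ifit2 (7.38 ± 0.773), Ifit1 (5.66 ± 0.0470), Ifit1bl1 (5.63 ± 0.700) and Ifit3b (3.11 ± 0.452), with Ifit1 and Ifit1bl1 within their spread. Exon lengths were those of GENCODE M39, in which Ifit1 has 7421 exon bases. With coding length in their place, a scale added after seeing the data, Ifit2 and Ifit1 came first in cDC2s at 30.9 and 30.2 CPM per kb and Ifit3 next at 23.0. In cDC1s Ifit2 still led at 18.1, but Ifit1 (2.05) then stood above Ifit3 (1.47).

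Markers of other myeloid cells were present at low levels in both sorted cell types, and were not tested between them. The 3 monocyte markers summed to between 8.27 and 10.0 CPM in cDC1s and between 17.1 and 24.9 CPM in cDC2s with WT medium, and the 7 macrophage markers to between 3.26 and 6.96 and between 4.98 and 11.9 CPM, ranges that overlap. The 5 plasmacytoid dendritic cell markers summed to between 15.7 and 20.6 CPM in cDC1s and between 2.62 and 3.96 CPM in cDC2s, most of it from Pacsin1 (means of 15.5 and 1.76 CPM). Ccr9 (1.80 and 0.398 CPM) and Klk1 (0.0299 and 0 CPM) had the same order. Siglech, which defines these cells, and Cox6a2 had the opposite order, with means of 0.112 and 0.131 CPM in cDC1s and 0.565 and 0.672 CPM in cDC2s. The part of such cells in the IFIT levels was not tested.

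In cDC1s, RIPK3 medium went with lower levels of the 3 main genes and of Ifit1bl1. In that comparison 4 of the 6 members were called lower and none higher, where 8.19% of 19513 genes were called lower and 8.34% higher. Ifit2 measured 25.3, 26.2 and 25.2 CPM with WT medium and 8.55, 4.97 and 8.52 CPM with RIPK3 medium, without overlap. It fell by 1.81 on the log2 scale (95% interval -2.37 to -1.25, edgeR adjusted p = 0.00147), in 3 of 3 samples.

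Ifit1 measured 0.910, 1.31 and 1.15 CPM with RIPK3 medium, each of them under the lowest WT sample, and changed by -1.34 ± 0.257 (log2, SE, edgeR adjusted p = 0.000152). Ifit3 measured 0.556, 0.452 and 0.978 CPM and changed by -1.45 ± 0.323 (log2, SE, edgeR adjusted p = 0.000984), also without overlap. The 95% intervals were -1.87 to -0.82 for Ifit1 and -2.11 to -0.79 for Ifit3, and the differences between the 3 genes were not tested.

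Ifit1bl1 stood at 2, 2 and 1 reads with RIPK3 medium against 12, 16 and 10 with WT medium. The ratio of the summed reads was 0.143, with an exact 95% counting interval of 0.0439 to 0.364, and edgeR gave an adjusted p of 0.000895. Counting intervals cover counting error alone, because reads without molecular identifiers are not independent molecules. DESeq2 gave this gene no adjusted p, and filterByExpr left it out. Ifit3b had 2, 4 and 3 reads against 6, 2 and 2, and a change was not detectable at this depth (ratio 0.978, 95% counting interval 0.351 to 2.68). Ifit1bl2 had 0, 1 and 0 reads against 4, 0 and 3 (ratio 0.155, 95% counting interval 0.00344 to 1.21).

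In the same comparison some markers of other cells moved as well. The 5 measured TC-1 tumor cell markers summed to between 7.72 and 9.12 CPM with WT medium and between 9.21 and 11.3 CPM with RIPK3 medium, and 1 was called higher. The 3 monocyte markers summed to between 8.27 and 10.0 CPM with WT and between 7.13 and 9.19 CPM with RIPK3 medium. Of these 1 was called higher and 1 lower, and their means went from 5.00 to 1.15 CPM for Fcgr1, from 3.81 to 6.13 CPM for Ccr2 and from 0.447 to 0.615 CPM for Ly6c2. Of the 6 cDC1 markers 3 were called higher and 2 lower, with sums of 1222 to 1340 and 1175 to 1240 CPM. The part of these shifts in the IFIT values was not tested.

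With BimS medium the cDC1 levels of the 3 main genes had means between those with WT and RIPK3 medium. The replicates of Ifit1 and Ifit2 were spread more widely than in either, while those of Ifit3 were not. Ifit2 measured 22.3, 14.1 and 21.2 CPM, all below the WT samples, with a log2 fold change of -0.42 that did not pass the threshold (95% interval -0.91 to 0.07, edgeR adjusted p = 0.301). Ifit1 measured 2.80, 1.22 and 2.32 CPM and overlapped the WT samples (log2 -0.44 ± 0.228, edgeR adjusted p = 0.245). Ifit3 measured 1.07, 0.748 and 1.29 CPM (log2 -0.79 ± 0.292, edgeR adjusted p = 0.0700) and passed with the replicate number as a block (adjusted p = 0.0323). Replicate 2 was the lowest sample for all 3 genes.

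The only member called between BimS and WT medium in cDC1s was Ifit1bl1, against a background of 5.89% of genes called lower. It had 3, 3 and 2 reads with BimS medium, a ratio of 0.216 to WT medium with an exact 95% counting interval of 0.0870 to 0.470 (edgeR adjusted p = 0.00488). The adjusted p ranged up to 0.0455 when single samples were left out. The summed level of macrophage markers moved as well, from between 3.26 and 6.96 CPM with WT medium to between 1.50 and 2.53 CPM with BimS medium, and 1 of the 6 tested markers was called lower. Of the 3 monocyte markers 1 was called lower and none higher, with sums of 8.27 to 10.0 and 5.70 to 8.55 CPM. Of the 6 cDC1 markers 2 were called higher and 2 lower, with sums of 1222 to 1340 and 1211 to 1353 CPM. The part of these shifts in the IFIT values was not tested.

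Between the 2 media of dying cells, Ifit2 was lower with RIPK3 than with BimS medium in cDC1s, at 4.97 to 8.55 against 14.1 to 22.3 CPM. It was the 1 member called, where 2.21% of genes were called lower (log2 -1.39 ± 0.244, edgeR adjusted p = 0.0247). The call was lost, with adjusted p between 0.0518 and 0.102, when any of the 3 WT samples, BimS replicate 1 or 3, or RIPK3 replicate 1 or 3 was left out, while the log2 fold change stayed between -1.57 and -1.16. Ifit1 changed by -0.90 ± 0.271 (log2, SE, edgeR adjusted p = 0.0522) with ranges that overlapped, and passed with the replicate block (adjusted p = 0.0135) and without BimS replicate 2 (adjusted p = 0.00356). Ifit3 changed by -0.66 ± 0.356 (log2, SE, edgeR adjusted p = 0.391). Between these media 1 monocyte marker was called higher and 1 lower, with sums of 5.70 to 8.55 CPM with BimS and 7.13 to 9.19 CPM with RIPK3 medium. Of the 6 cDC1 markers 1 was called higher and 2 lower. Macrophage markers summed to between 1.50 and 2.53 CPM with BimS and between 2.78 and 4.66 CPM with RIPK3 medium, and none was called. The part of these shifts was not tested.

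**Figure D3:**
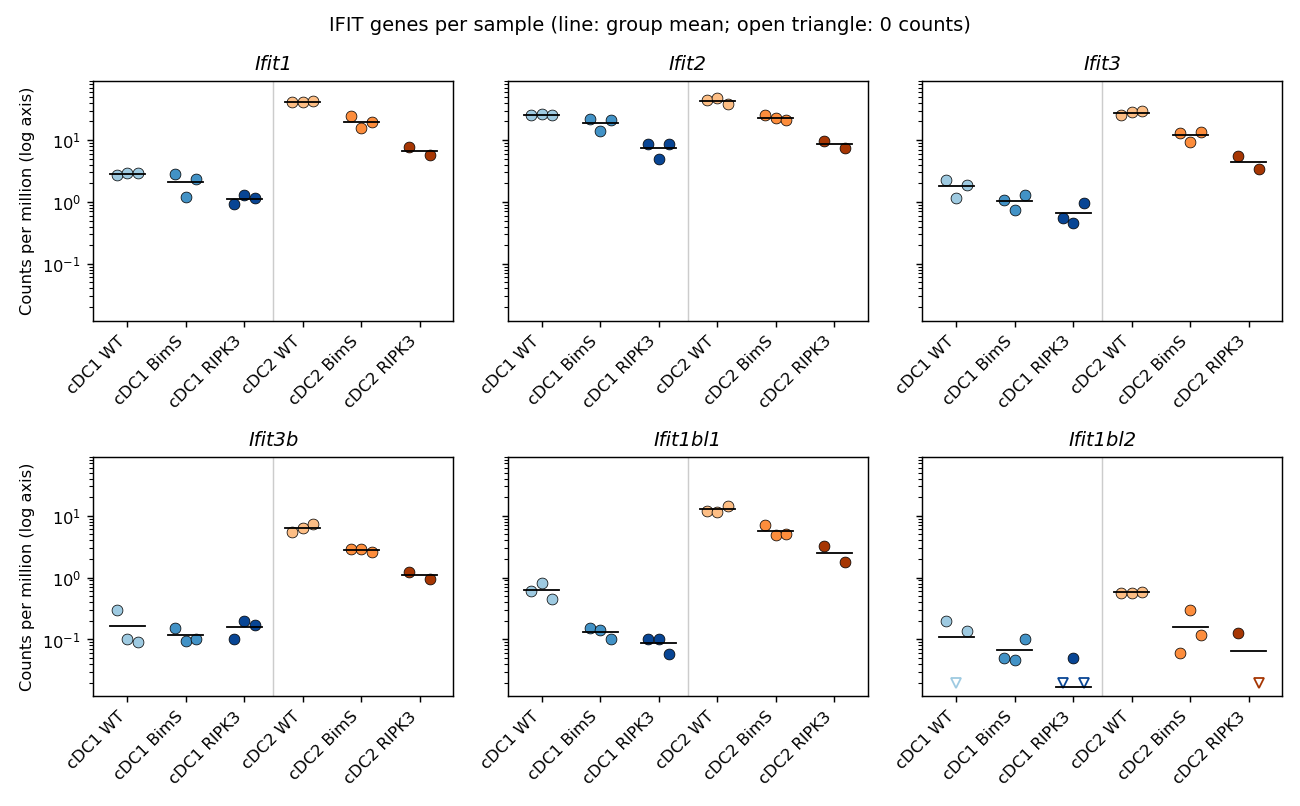
CPM of each IFIT gene in every sample, on a log axis, by cell type and medium; points are samples, lines are group means and open triangles at the foot mark samples with 0 counts. In cDC2s the levels of Ifit1, Ifit2 and Ifit3 step down from WT to BimS to RIPK3 medium without overlap, and the cell types lie closest together for Ifit2.

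In cDC2s, where the values chose the family, the levels stepped down from WT to BimS to RIPK3 medium in each of the 5 genes with more than a few reads. Ifit1 measured 41.7, 41.9 and 42.4 CPM with WT medium, 24.2, 15.4 and 19.9 CPM with BimS medium and 7.70 and 5.68 CPM with RIPK3 medium. No ranges of neighbouring groups overlapped. Its log2 fold change over WT was -1.09 ± 0.132 (SE) with BimS medium and -2.66 ± 0.174 (SE) with RIPK3 medium.

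Ifit2, which had differed least between the cell types, showed the same order. It measured 45.2, 47.1 and 38.4 CPM with WT medium, 25.4, 22.7 and 21.2 CPM with BimS medium and 9.70 and 7.38 CPM with RIPK3 medium. The log2 fold changes over WT medium were -0.92 ± 0.113 and -2.36 ± 0.146. Ifit3 measured 25.2 to 29.9, 9.35 to 13.5 and 3.40 to 5.50 CPM in these groups (-1.23 ± 0.145 and -2.66 ± 0.192).

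The less abundant relatives moved by similar factors. Ifit3b went from 5.44 to 7.28 CPM with WT medium to between 2.62 and 2.92 with BimS medium and to 1.23 and 0.938 with RIPK3 medium (log2 -1.17 ± 0.178 and -2.56 ± 0.246). Ifit1bl1 went from 11.5 to 14.5 CPM to between 4.93 and 7.18 and to 3.30 and 1.76 CPM (log2 -1.16 ± 0.177 and -2.35 ± 0.234). Ifit1bl2 had 11, 10 and 11 reads with WT medium, 1, 6 and 2 with BimS medium and 2 and 0 with RIPK3 medium. The RIPK3 to WT ratio of its summed reads was 0.107, with an exact 95% counting interval of 0.0124 to 0.418.

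By the same threshold 5 members were called lower with BimS medium and 6 with RIPK3 medium, beside 3.21% and 3.28% of 19239 genes called lower. Between RIPK3 and BimS medium 5 were called lower, beside 0.218% of genes, or 42 in number. These counts restate the choice of the family and nothing is read from them. The RIPK3 group held 2 samples: without replicate 2 of this group no gene was called between RIPK3 and BimS medium by edgeR, and the log2 fold change of Ifit1 was -1.37 in place of -1.57. The falls in cDC2s went with lower calls for 1 of the 5 cDC2 markers with BimS medium and for 3 with RIPK3 medium. Their sum was 316 to 362 CPM with WT, 297 to 325 with BimS and 269 to 306 with RIPK3 medium. The 7 macrophage markers summed to between 4.93 and 5.54 CPM with BimS and between 6.14 and 9.26 CPM with RIPK3 medium, and none was called. The 3 monocyte markers summed to between 17.1 and 24.9 CPM with WT and between 17.7 and 20.3 CPM with RIPK3 medium, ranges that overlap, and 1 was called lower. Their means went from 15.2 to 9.77 CPM for Fcgr1, from 6.12 to 8.80 CPM for Ccr2 and from 0.731 to 0.396 CPM for Ly6c2. The part of these shifts was not tested.

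**Figure D4:**
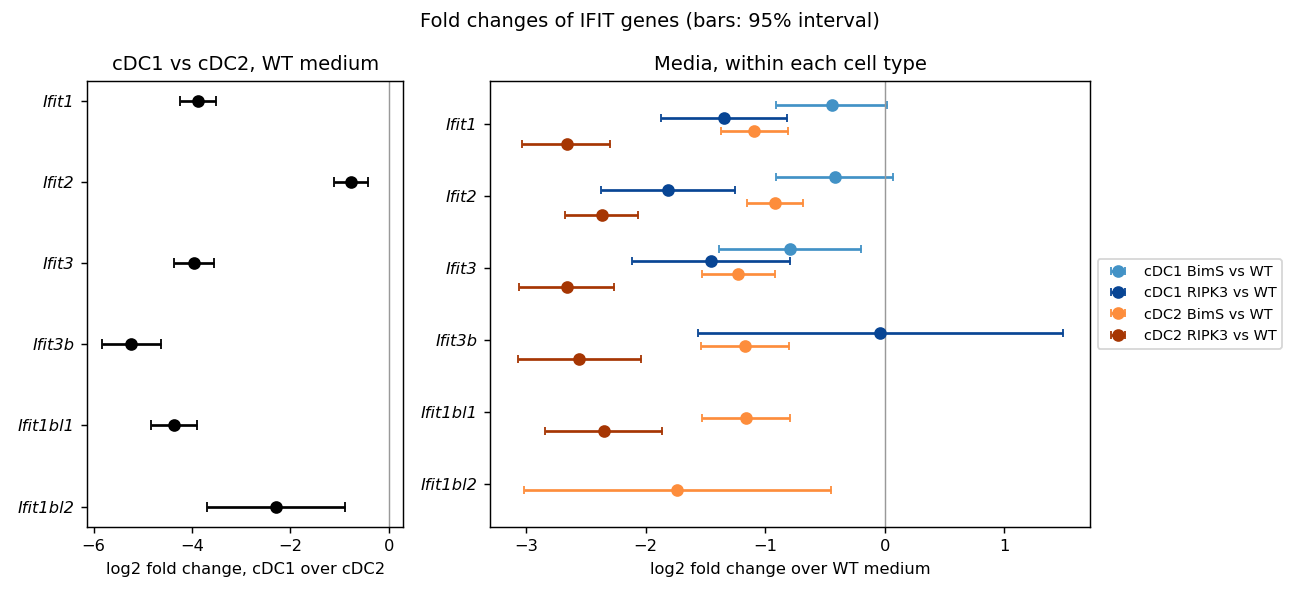
Left, log2 fold change of each IFIT gene in cDC1s over cDC2s with WT medium; right, log2 fold change over WT medium within each cell type, both with 95% intervals, leaving out genes for which a group had at most 3 reads in every sample. On the left Ifit2 lies nearest to 0 at -0.77, and on the right cDC2 values with RIPK3 medium run from -2.66 to -2.35.

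The falls with RIPK3 medium were larger in cDC2s than in cDC1s for some members by their estimates. These differences contain the cDC2 values that chose the family and are given as a description. On the log2 scale the change in cDC1s less that in cDC2s was 1.31 for Ifit1 (95% interval 0.57 to 2.06), 1.20 for Ifit3 (0.29 to 2.11), 2.52 for Ifit3b (1.07 to 3.97) and 0.55 for Ifit2 (-0.07 to 1.17). Ifit1bl1 went the other way, since the RIPK3 to WT ratio of its summed reads was 0.143 in cDC1s (95% counting interval 0.0439 to 0.364) and 0.196 in cDC2s (0.153 to 0.246), intervals that overlap. For Ifit1bl2 the ratios were 0.155 and 0.107, from 1 and 2 reads with RIPK3 medium. With edgeR none of the 6 members passed the adjusted threshold, while 1.14% of 19082 genes were called by edgeR in either direction. DESeq2 and limma each called 2 members, beside 305 and 109 of all genes. With the replicate block Ifit1 was called, beside 449 of all genes, and DESeq2 called Ifit1 and Ifit3b. For BimS against WT medium none passed, beside 0.870% of all genes, and DESeq2 and limma called 0, beside 261 and 67 genes. For RIPK3 against BimS medium none passed, beside 0.0314% of all genes, and DESeq2 and limma called 0, beside 17 and 3 genes.

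For Ifit1, Ifit3, Ifit3b and Ifit1bl1, every cDC2 group, even with RIPK3 medium, lay above every cDC1 group. Within cDC1s the means of Ifit1, Ifit3 and Ifit1bl1 ran from WT to BimS to RIPK3 medium, while those of Ifit3b ran from WT (0.163 CPM) to RIPK3 (0.158) to BimS medium (0.116), with overlapping ranges. For Ifit1 the lowest cDC2 sample (5.68 CPM) was above the highest cDC1 sample (2.92 CPM). Ifit2 was ordered by the medium instead: cDC2 WT (43.6 CPM), cDC1 WT (25.6), cDC2 BimS (23.1), cDC1 BimS (19.2), cDC2 RIPK3 (8.54) and cDC1 RIPK3 (7.34). In this order the ranges of cDC1 WT and cDC2 BimS, of cDC2 BimS and cDC1 BimS, and of cDC2 RIPK3 and cDC1 RIPK3 overlapped.

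The pathway above the family was described with lists of its known parts, which were chosen with results of these data known, as counts per direction. The adjusted p-values of list genes are therefore a description and no independent support. Those in cDC2s also come from the samples that chose the family. Of 21 interferon ligand genes 7 were in the count table, and the highest count in any sample was 4 reads, so interferon transcripts were not measurable here. Of the 9 receptors and kinases, none passed in cDC2s with either medium. In cDC1s 3 were lower with BimS medium and 1 with RIPK3 medium, and Jak2, the most abundant, changed by 0.03 ± 0.0433 (log2, SE) with RIPK3 medium. The median log2 fold change of the list with RIPK3 medium was -0.03 in cDC1s and -0.01 in cDC2s, beside -0.01 and -0.02 over all genes. In cDC2s 3.93% of all genes were called higher with RIPK3 medium.

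Of the 10 transcription factors, RIPK3 medium gave 1 higher and 5 lower in cDC1s and 1 higher and 3 lower in cDC2s. Stat2, which acts at the ISRE, changed by -0.63 ± 0.0668 in cDC1s (log2, SE, edgeR adjusted p = 6.06e-07) and by -0.92 ± 0.102 in cDC2s (adjusted p = 3.87e-06). Irf9, its DNA-binding partner and singled out after its values were seen, changed by -0.45 ± 0.0561 in cDC1s (adjusted p = 8.43e-08) and by -0.82 ± 0.106 in cDC2s (adjusted p = 2.51e-05). Irf1 rose, by 0.44 in both (adjusted p = 2.83e-08 and 0.00284), whereas Irf5 and Stat3 did not pass in either (Irf5 0.03 ± 0.0418 and 0.05 ± 0.0874, log2 and SE). The list's median was -0.30 in cDC1s and 0.01 in cDC2s.

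Of the 6 cytosolic RNA sensors, most of which are themselves interferon-induced, 3 were called lower with RIPK3 medium in cDC1s and 5 in cDC2s. None was called higher in either. With BimS medium 4 and 6 were called lower. Eif2ak2, the kinase that halts translation on double-stranded RNA, changed with RIPK3 medium by -1.11 ± 0.0640 in cDC1s (log2, SE, edgeR adjusted p = 7.41e-14) and by -1.27 ± 0.117 in cDC2s (adjusted p = 4.18e-07). Ifih1, which encodes the sensor MDA5, changed by -0.58 ± 0.0830 and -0.99 ± 0.157 (adjusted p = 7.04e-06 and 0.000810). The median of the list was -0.80 in cDC1s and -1.25 in cDC2s. Rigi resembled Ifit1 in its distribution, as it was lower in cDC1s than in cDC2s with WT medium by -3.20 ± 0.189 (log2, SE, edgeR adjusted p = 1.30e-09), whereas Eif2ak2 was higher in cDC1s by 0.52 ± 0.0871 (adjusted p = 1.17e-05).

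Of the 6 feedback inhibitors, 2 were higher and 1 lower in cDC1s with RIPK3 medium, and 2 were lower in cDC2s. Of the 8 cap enzymes and IFIT protein partners, 2 were lower in cDC1s and 1 in cDC2s. The latter was Sting1, an adaptor of DNA sensing, at -0.79 ± 0.0620 in cDC1s (log2, SE, edgeR adjusted p = 1.71e-12) and -0.83 ± 0.110 in cDC2s (adjusted p = 3.19e-05). Cmtr1, which methylates the cap that IFIT1 probes, was not called with any medium, at 0.11 ± 0.167 and 0.30 ± 0.102 with RIPK3 medium.

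Of the genes beside the cluster on chromosome 19, 1 rose in both cell types and the others were called lower in 1 cell type or in none. Of the 11 protein-coding genes within 500 kb, 9 were in the count table. Lipa, which encodes lysosomal acid lipase and lies on the minus strand 5769 bases from Ifit2, had between 1649 and 1998 reads in cDC1s with WT medium and between 5441 and 6135 with RIPK3 medium. It rose by 1.80 ± 0.0572 in cDC1s (log2, SE, edgeR adjusted p = 7.92e-23) and by 0.90 ± 0.0980 in cDC2s (adjusted p = 3.17e-06). Fas changed by 0.15 ± 0.136 and -0.28 ± 0.160 and was not called. Kif20b and Pank1 were called lower in cDC1s, at -0.49 ± 0.125 and -0.67 ± 0.207 (adjusted p = 0.00457 and 0.0201), and Stambpl1 in cDC2s at -0.90 ± 0.253 (adjusted p = 0.0347).

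**Figure D5:**
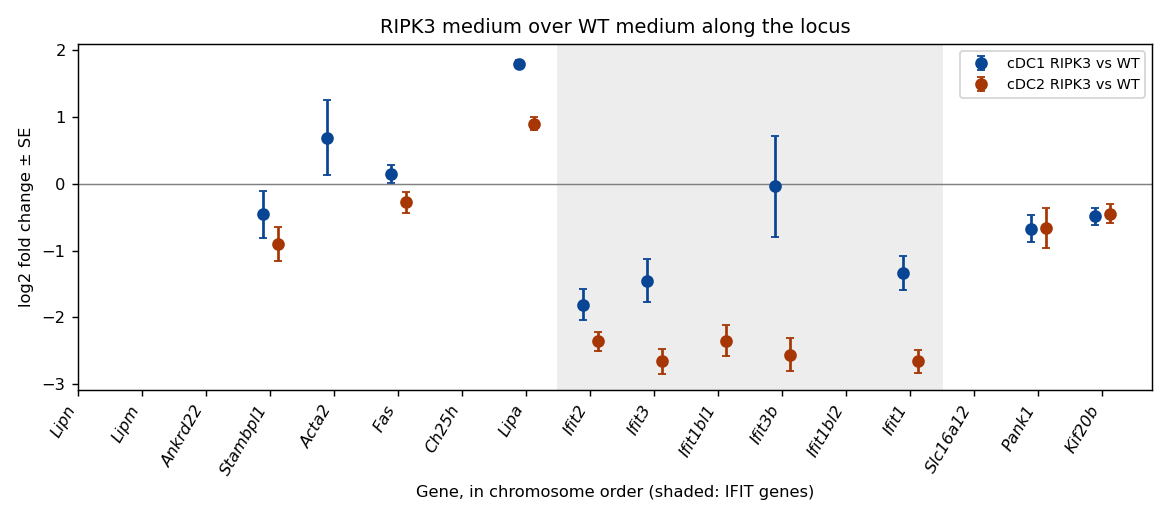
Log2 fold change (± SE) of RIPK3 over WT medium for the genes around the IFIT cluster in chromosome order (equal spacing), in cDC1s (blue) and cDC2s (red); a gene with at most 3 reads in every sample of either group has no point. The shaded IFIT genes lie below 0 with Ifit3b in cDC1s nearest to it at -0.04, while neighbouring Lipa lies at 1.80 and 0.90.

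Likeness to Ifit2 was measured by the correlation of log2 CPM, less the mean of each cell type, over the 17 samples. Only Ifit2 had a mean log2 CPM of 3 or more in cDC1s as well as in cDC2s and could be used for this, so the ranking need not hold for the other members, and 7284 other genes were compared. The closest was Slfn5, a Schlafen gene also induced by interferon, with Pearson r of 0.981, followed by Cbfa2t3 (0.953), Samd9l (0.953), Armc8 (0.950) and Usp18 (0.948). The points share libraries, media and cultures, and the values are a description. Slfn5 averaged 93.0, 53.2 and 23.4 CPM in cDC1s (WT, BimS and RIPK3 medium) and 69.3, 32.0 and 12.3 CPM in cDC2s. Usp18, which removes ISG15 and dampens the interferon receptor, averaged 27.4, 15.9 and 10.5 CPM in cDC1s and 24.7, 12.8 and 6.12 CPM in cDC2s. Within cDC1s alone r was 0.918 to 0.972 for the 5 genes, and within cDC2s alone 0.945 to 0.990. The ranking was that of the pooled samples, as in cDC1s alone Samd9l ranked 6, Slfn5 7, Armc8 30, Usp18 51 and Cbfa2t3 73, and in cDC2s alone Slfn5 ranked 2, Cbfa2t3 3, Armc8 11, Usp18 15 and Samd9l 50.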

How the data were processed

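Polyadenylated RNA of 17 samples was sequenced as paired reads of 54 bases. The deposited counts, reads per gene without normalization, were made by the authors with SeqPurge, STAR 2.7.10a on GRCm39 and gensum. Lines without a gene identifier (148 of 31239, at most 0.0366% of a sample's counts) were left out. Counts were tested with edgeR 4.0.16 in R 4.3.3 (quasi-likelihood, robust, TMM) on genes detected in 50% or more of a fit's libraries, for cDC1s and cDC2s separately and over all samples for the cell types and their interaction with the medium, with a threshold of 0.05 on Benjamini-Hochberg adjusted p. The members and the gene lists were chosen with earlier results of these data known. Named genes were the 6 members, the neighbours within 500 kb, up to 4 genes of a list with the highest mean CPM, and the 5 genes most like Ifit2. No source states separate cultures or animals for the replicates, so p-values measure the spread between these samples. Within a cell type, samples with the same replicate number deviated together from their group means (r over 0.1 in 9 of 9 pairs of cDC1s and 7 of 7 of cDC2s, medians 0.312 and 0.427). The numbers may thus pair the samples, but the main fits, their SEs and the shares of all genes did not use them. The blocked value is given where it changes a call. Alternatives were DESeq2 1.42.0, RLE factors, filterByExpr, no filter, limma 3.58.1 on log2 counts without normalization, the replicate block, Ifit3 and Ifit3b summed, and each sample left out. The procedure was tested on simulated data. The authors' normalized table was not used.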

Additional observations from a re-analysis of the deposited data

Results flagged for a closer look

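The response to the media differed between cDC1s and cDC2s for 5 genes of the pathway and neighbour lists, by the interaction term of edgeR with Benjamini-Hochberg adjustment over all genes. These genes were picked for passing, from lists of 9, 10, 6, 6, 8 and 7 tested genes. Over all genes 0.870% were called for BimS against WT medium and 1.14% for RIPK3 against WT medium. Values are the log2 change in cDC1s less that in cDC2s, with SE. For Lipa the difference was 0.76 ± 0.109 with BimS medium (adjusted p = 0.000133) and 0.89 ± 0.116 with RIPK3 medium (adjusted p = 2.97e-05), and the gene rose in both cell types. For Ptpn6, which encodes the phosphatase SHP-1, it was 1.10 ± 0.144 (adjusted p = 0.000135) and 1.08 ± 0.155 (adjusted p = 0.000311). This gene fell in cDC2s by 0.92 with BimS medium and by 0.87 with RIPK3 medium on the log2 scale, and was not called in cDC1s. For Dhx58, which encodes the RNA helicase LGP2, it was 0.86 ± 0.162 (adjusted p = 0.00671) and 1.37 ± 0.179 (adjusted p = 9.25e-05). For Irf8, a transcription factor needed for cDC1s, it was -0.78 ± 0.165 (adjusted p = 0.0254) and -1.30 ± 0.174 (adjusted p = 0.000265). For Socs3, a feedback inhibitor of cytokine signaling, it was 0.42 ± 0.0961 with BimS medium (adjusted p = 0.0254). With RIPK3 medium it was 0.31 ± 0.102 and did not pass (adjusted p = 0.194). Irf8 was singled out after its values were seen.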

How the results depend on the processing

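The calls of IFIT genes in cDC1s between RIPK3 and WT medium (3 to 4 of 6) and between the cell types with WT medium (5 to 6) moved little under any alternative, as did those in cDC2s against WT medium (4 to 6). For BimS against WT medium in cDC1s, 1 gene became 0 with DESeq2 and with filterByExpr, which leave out Ifit1bl1 or give it no adjusted p, and 2 without a filter, with limma or with the replicate block. It was 1 to 2 when single samples were left out. For RIPK3 against BimS medium in cDC1s, 1 became 2 without a filter, with limma and with the replicate block, and 0 to 2 with single samples left out. For RIPK3 against BimS medium in cDC2s, 5 became 0 to 5 with single samples left out. For the difference between the cell types, 0 became 2 with DESeq2, without a filter and with limma and 1 with the replicate block for RIPK3 against WT medium (0 to 1 with single samples left out), and 1 without a filter for BimS against WT medium. Ifit3b in cDC1s between RIPK3 and WT medium turned from -0.04 to 0.01 (log2) with the replicate block and ranged from -0.34 to 0.69 with single samples left out. The difference of Ifit2 between cell types for RIPK3 against BimS medium, 0.05, ranged from -0.14 to 0.28. Where not stated above, the cause of a change was not tested.

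Pairing by replicate number raised the count of all genes called in cDC2s from 1349, 1387 and 73 (BimS against WT, RIPK3 against WT, RIPK3 against BimS) to 4103, 4126 and 2755. In cDC1s it raised the count between RIPK3 and BimS medium from 810 to 1730. Besides the calls given with the results, the replicate block added Ifit1bl2 between BimS and WT medium in cDC2s and changed no other call of an IFIT gene. Without a filter the cDC2 count between RIPK3 and BimS medium was 300, with DESeq2 141 and with filterByExpr 46. Depth limits Ifit3b, Ifit1bl1 and Ifit1bl2 in cDC1s, where groups held as few as 1 to 9 reads in all.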

Other observations

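The lowest family sum within a group was found in replicate 2 for the BimS and RIPK3 groups of both cell types, at 16.3 and 7.08 CPM in cDC1s and 55.6 and 19.2 CPM in cDC2s. With WT medium the replicate 2 sample was not the lowest in either cell type (31.2 of 30.7 to 31.4 CPM in cDC1s and 136 of 130 to 136 CPM in cDC2s).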
